A study of Mus musculus with 7 samples.

Results

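The mRNAs of 38 receptors for neuromodulators were followed in mouse cerebral cortex from late gestation to adulthood. The rule that gives the set names its genes and uses no measured value, although the set was proposed with earlier results of these data known. It holds receptors or receptor subunits for serotonin (10 genes), acetylcholine (9), noradrenaline (6), dopamine (3), cannabinoids (1), opioids (4), adenosine (2) and histamine (3). All 38 were found among the 36666 rows of the gene table, and all 38 were among the 22828 genes tested. The set does not hold every receptor of these systems. The receptors outside it are described with the other genes of each system below.

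The series compared whole cortex of the C57BL/6 mouse strain at embryonic day 17 (E17, 4 samples) with cortex of young adults (3 samples) by mRNA sequencing. No allele, transgene or treatment is named for either group. The labels do not say how the cortex was dissected, whether animals were pooled, or the adults' exact age.

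Neuromodulators act mostly through receptors with 7 transmembrane segments that couple to G proteins. Receptors coupled to Gq raise inositol trisphosphate and calcium, those coupled to Gs raise cyclic AMP, and those coupled to Gi or Go lower cyclic AMP and open potassium channels of the GIRK type. Nicotinic acetylcholine receptors and the serotonin receptor 5-HT3 are instead ion channels built from 5 subunits. In the cortex most of the monoamine and acetylcholine supply comes from fibres whose cell bodies lie in the brainstem, hypothalamus and basal forebrain, so a receptor and its transmitter are usually made by different cells.

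Most receptor mRNAs were more abundant in adult cortex. At an adjusted p under 0.05, 30 of the 38 rose, against 35.8% of all tested genes, and 5 fell, against 33.9% of all tested genes. The other 3 receptors, Chrna5, Chrna7 and Drd4, did not pass in either direction, the background for a call of either sign being 69.7%. The median difference between adult and embryonic means was 1.90 over the receptors and 0.03 over all tested genes. Differences are on the deposited scale, which resembles log2: a step of 1 means about 2-fold at high expression and understates the fold where reads are few. The receptors ranged from -0.81 for Cnr1 to 6.31 for Adra1d. By estimate, 17 receptors were called higher with a difference of at least 2, against 9.65% of tested genes, and 29 with a difference of at least 1, against 21.9%. None of the 5 receptors that fell reached a difference of 1, while 15.6% of tested genes fell by that much. In 30 receptors the 3 adult values lay above all 4 embryonic values, against 35.7% of tested genes. In 7 they lay below all 4, against 33.2%. Chrna7 was the 1 receptor whose groups overlapped.

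Levels are given below as counts per 1000000 reads in genes (CPM), in the order embryonic samples 1 to 4 and adult samples 1 to 3, and group means with their SD (n = 4 and n = 3). In bulk tissue, fewer cells of a type and less RNA per cell cannot be told apart. This holds for each receptor below. For every count below of genes that rose or fell, the shares over all tested genes were 35.8% and 33.9%.

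**Figure D1:**
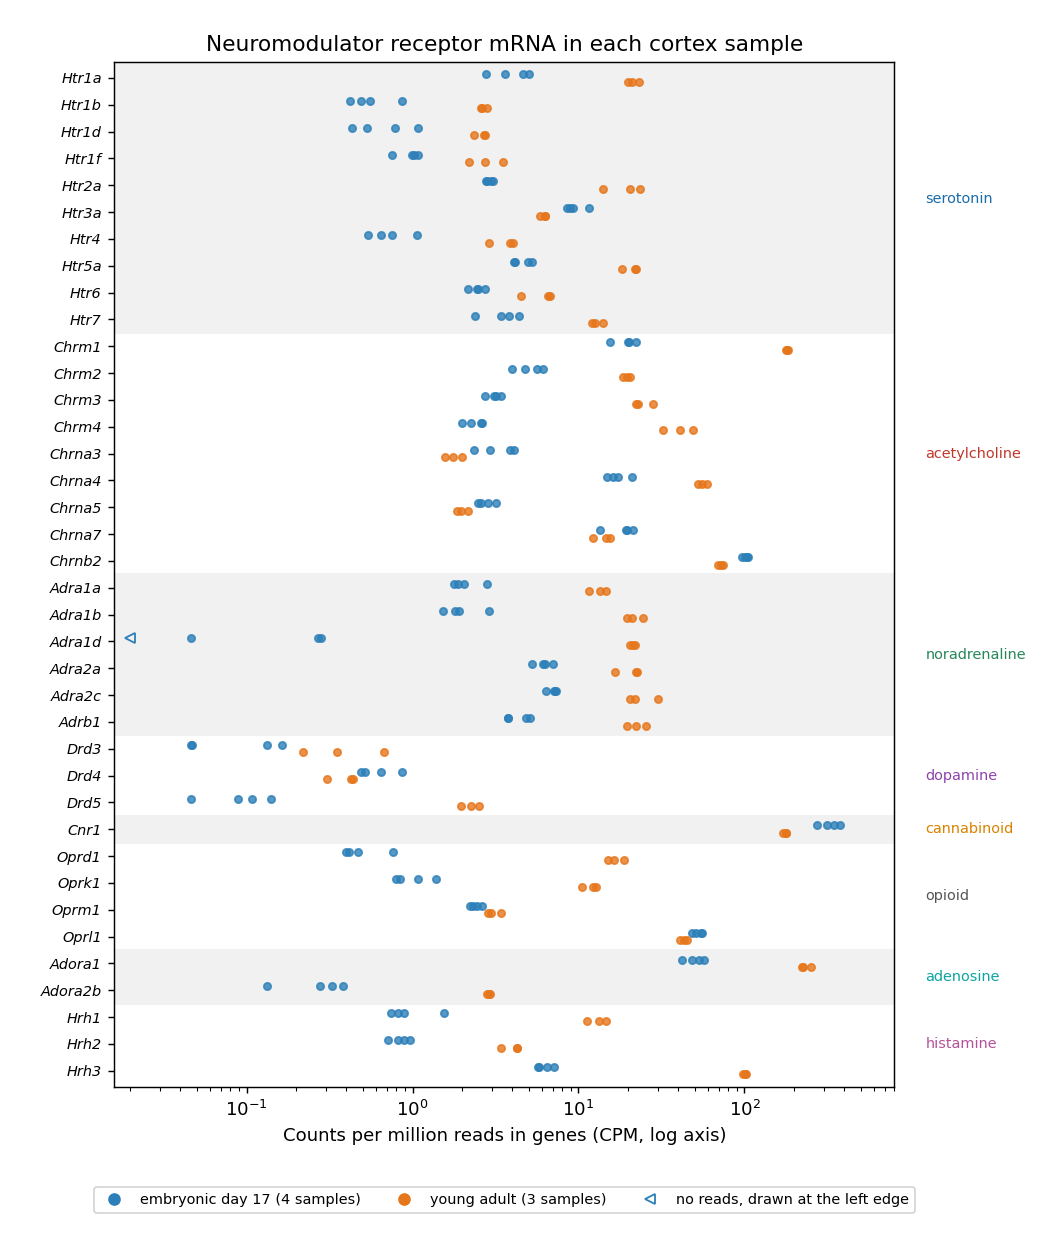
Level of each receptor mRNA in every sample, in CPM on a log axis, with embryonic samples in blue and adult samples in orange, grouped by transmitter. The adult points lie to the right of all embryonic points for 30 receptors and to the left of all of them for 7, and the open triangle marks the embryonic sample without an Adra1d read.

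Stretches upstream of receptor genes are shown, for a receptor with a large rise (Oprd1), the most changed acetylcholine receptor (Chrm4), an opioid receptor that moved little (Oprm1) and the receptor with the largest fall (Cnr1). They were chosen after the values were seen. Each is the 250 bases before a RefSeq transcript start (GRCm38.p6), 5′ to 3′ on the strand of the gene, and none overlaps a GENCODE M21 exon. Capitals mark the GC box GGGCGG, read on both strands, the core of sites bound by Sp1-type factors. The Oprd1 stretch is chr4:132144487-132144736 on the minus strand, Chrm4 is chr2:91921939-91922188 on the plus strand, Oprm1 is chr10:6788320-6788569 on the plus strand and Cnr1 is chr4:33924014-33924263 on the plus strand.
Oprd1: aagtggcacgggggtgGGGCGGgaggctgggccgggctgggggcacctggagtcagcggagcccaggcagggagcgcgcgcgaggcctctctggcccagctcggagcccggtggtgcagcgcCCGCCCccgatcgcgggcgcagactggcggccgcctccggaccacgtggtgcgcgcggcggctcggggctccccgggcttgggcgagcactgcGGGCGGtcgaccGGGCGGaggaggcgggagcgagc
Chrm4: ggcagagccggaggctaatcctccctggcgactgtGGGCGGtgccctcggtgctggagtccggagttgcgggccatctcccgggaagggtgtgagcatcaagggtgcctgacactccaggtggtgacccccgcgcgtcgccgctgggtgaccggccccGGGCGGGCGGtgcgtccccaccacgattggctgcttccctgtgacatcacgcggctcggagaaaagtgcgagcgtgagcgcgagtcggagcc
Oprm1: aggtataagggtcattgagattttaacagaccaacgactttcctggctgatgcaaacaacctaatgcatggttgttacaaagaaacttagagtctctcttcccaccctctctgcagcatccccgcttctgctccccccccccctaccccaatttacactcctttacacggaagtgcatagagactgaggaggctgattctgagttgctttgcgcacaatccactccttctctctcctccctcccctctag
Cnr1: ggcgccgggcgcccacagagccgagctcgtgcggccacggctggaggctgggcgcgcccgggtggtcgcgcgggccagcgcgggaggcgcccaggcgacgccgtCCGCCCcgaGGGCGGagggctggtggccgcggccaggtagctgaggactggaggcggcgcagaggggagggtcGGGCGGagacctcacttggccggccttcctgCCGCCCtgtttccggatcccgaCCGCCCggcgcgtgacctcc

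The Oprd1 stretch holds 4 GC boxes, that of Chrm4 holds 3 of which a pair overlap, that of Cnr1 holds 5, and that of Oprm1 holds none. Cnr1 fell, and Oprd1, Chrm4 and Oprm1 rose. Since the stretches were picked after the values were seen, they cannot show how the letters relate to direction, which was not tested. Cnr1 has further RefSeq starts. Their stretches, chr4:33924394-33924643 and chr4:33926130-33926379, overlap Cnr1 exons and hold no GC box. RefSeq windows of 300 bases, 250 before a start and 50 after it, were found for 32 of the 38 receptors (47 windows). A GC box on either strand stood in 27 of the 47 windows (57.4%) and in 35.7% of the 32851 windows of all genes. Counted by receptor, it stood in a window of 18 of the 25 matched receptors that rose, 3 of the 4 that fell and 3 of the 3 that were not called. A receptor can have several windows, some almost the same, so counts by receptor do not compare with the share of all windows. The median number of CpG dinucleotides per window was 15 for receptors and 7 for all windows. A TATAAA stood in 4.26% of receptor windows and in 13.6% of all, the E-box CACGTG in 10.6% and 7.15%, and the cyclic AMP response element TGACGTCA in none of the receptor windows and in 1.79% of all, each on both strands. These matches describe the letters of the windows.

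Serotonin receptors rose in 9 of 10 cases, with a median difference of 1.83. Htr2a, the Gq-coupled 5-HT2A receptor known as the target of hallucinogens, changed most. Its levels were 2.77, 2.83, 2.96 and 3.05 CPM in the embryonic samples and 23.4, 14.1 and 20.4 CPM in the adult samples. All embryonic values were low and close together, the adult values were spread more widely and adult sample 2 was the lowest of them. The mean rose 6.65-fold, from 2.90 ± 0.128 to 19.3 ± 4.76 CPM, with a difference of 2.56 (SE 0.15, adjusted p = 2.12e-09).

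The Gi-coupled serotonin receptors rose together. Htr1a, the 5-HT1A receptor that hyperpolarizes cortical neurons, rose 5.31-fold, from 4.01 ± 1.02 to 21.3 ± 1.55 CPM. Htr5a rose 4.52-fold, from 4.60 ± 0.593 to 20.8 ± 2.19 CPM. Htr1b, a receptor of axon terminals, reached 2.67 ± 0.114 CPM from 0.583 ± 0.197 CPM, Htr1d 2.60 ± 0.210 from 0.708 ± 0.290 CPM, and Htr1f 2.81 ± 0.648 from 0.961 ± 0.144 CPM. Per kilobase of exon sequence, adult levels were 4.75 CPM for Htr1a and 3.86 CPM for Htr5a, and 0.565 to 1.09 CPM for the other 3. Their adjusted p ran from 1.88e-09 for Htr5a to 2.73e-05 for Htr1f. Htr1b and Htr1d had fewer than 10 reads in at least 1 embryonic sample.

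The Gs-coupled serotonin receptors also rose. Htr7 went from 3.50 ± 0.842 to 12.9 ± 1.08 CPM (difference 1.83), Htr4 from 0.751 ± 0.225 to 3.59 ± 0.626 CPM (difference 1.93) and Htr6 from 2.46 ± 0.229 to 5.93 ± 1.24 CPM (difference 1.18, adjusted p = 1.38e-05). Htr6, a receptor of neuronal cilia, had the smallest increase among serotonin receptors that rose.

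Htr3a, the subunit of the 5-HT3 ion channel, was the serotonin receptor that fell. It stood at 8.51, 9.26, 11.6 and 8.87 CPM in the embryonic samples and at 6.28, 6.31 and 5.89 CPM in the adult samples. The groups did not overlap, and the adult samples differed little among themselves. The mean fell from 9.57 ± 1.40 to 6.16 ± 0.233 CPM, a ratio of 0.644 (difference -0.50, SE 0.12, adjusted p = 0.00248). Htr3a marks a class of cortical interneurons. The summed level of the interneuron markers was 386 to 424 CPM in embryonic and 1251 to 1264 CPM in adult samples. Of these markers 9 of 10 were higher and 1, Lhx6, was lower. The part of these cells in the Htr3a level was not tested.

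All 4 muscarinic acetylcholine receptors of the set, which are G protein-coupled, rose, with a median difference of 3.04. Of its 5 nicotinic subunits, which form ion channels, 1 rose, 2 fell and 2 were not called, with a median difference of -0.33. The 7 other nicotinic subunits that could be tested went otherwise, with 5 higher, none lower, 2 not called and a median of 1.09. Those 5, Chrna1, Chrna2, Chrna6, Chrna10 and Chrnb4, were near the detection limit. They had 0 to 11 reads per embryonic sample and adult means of 0.303 to 0.906 CPM. The subunits of the set had 46 to 2349 reads per embryonic sample. Over all 12 tested subunits, 6 rose, 2 fell and 4 were not called, with a median of 0.73. Chrnb3, not tested, had no reads in any embryonic sample and 39, 39 and 38 reads in the adult samples. The difference between muscarinic and nicotinic genes was not tested.

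Chrm4, the Gi-coupled M4 receptor, changed most. It stood at 2.60, 1.99, 2.26 and 2.63 CPM in the embryonic and at 32.4, 49.1 and 40.7 CPM in the adult samples. Every adult value was far above every embryonic one, and adult sample 2 was the highest. The mean rose 17.2-fold, from 2.37 ± 0.304 to 40.7 ± 8.38 CPM (difference 3.87, SE 0.15, adjusted p = 2.52e-11). M4 is abundant in striatal neurons. The 11 striatal markers summed to 146 to 161 CPM in embryonic and 947 to 1069 CPM in adult samples, with 9 higher and 2 lower, and their part in the Chrm4 level was not tested. Chrm1, the Gq-coupled M1 receptor of cortical pyramidal neurons, rose 9.32-fold, from 19.4 ± 2.76 to 180.4 ± 2.30 CPM (difference 3.26, adjusted p = 5.19e-12). Chrm3, also Gq-coupled, rose 7.84-fold to 24.4 ± 3.18 CPM and Chrm2, the Gi-coupled M2 receptor found on cholinergic terminals, rose 3.80-fold to 19.5 ± 0.912 CPM.

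Chrna4 and Chrnb2 encode the α4 and β2 subunits of the main heteromeric nicotinic receptor of the brain, and they moved in opposite directions. Chrna4 rose 3.22-fold, from 17.4 ± 2.67 to 56.0 ± 3.50 CPM (difference 1.74, SE 0.11, adjusted p = 5.92e-09). Chrnb2 fell by 0.41 on the deposited scale (SE 0.07, adjusted p = 0.000207), with means of 101 ± 3.75 and 71.9 ± 2.86 CPM. The 4 embryonic values of Chrnb2, 101, 104, 105 and 96.6 CPM, were all above the adult values of 68.9, 74.6 and 72.1 CPM. Exons of Adar on the opposite strand cover 16.4% of the Chrnb2 exon bases. Adar stood at 143 ± 0.930 and 180.3 ± 5.40 CPM, and its share of the reads in Chrnb2 was not tested.

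Chrna3 and Chrna5 are neighbours on chromosome 9 (GRCm38, GENCODE M21), with Chrna5 at chr9:54980880-55007779 on the plus strand and Chrna3 at chr9:55010111-55026562 on the minus strand. Their α3 and α5 subunits join β subunits in nicotinic receptors, and α5 takes part as an accessory subunit. Chrna3 read 2.93, 2.35, 4.09 and 3.84 CPM in embryonic and 1.75, 1.57 and 1.98 CPM in adult samples. The groups did not overlap and the adult mean of 1.76 ± 0.207 CPM was below the embryonic one of 3.30 ± 0.809 CPM (adjusted p = 0.00499 for a difference of -0.67, SE 0.18). Chrna5 read 2.49, 2.57, 3.20 and 2.86 CPM in embryonic and 1.96, 2.16 and 1.85 CPM in adult samples. Its groups did not overlap either, with means of 2.78 ± 0.321 and 1.99 ± 0.158 CPM, but the difference of -0.33 (95% interval -0.66 to -0.01) missed the adjusted threshold (adjusted p = 0.0644). It passed after each sample was centred on its median (-0.51, adjusted p = 0.00761) and without the mean-variance trend (adjusted p = 0.0258). Chrnb4, the third gene of this cluster and no member of the set, was looked up after the values of Chrna3 and Chrna5 were seen. Its mean was 0.327 ± 0.144 CPM in embryonic and 0.771 ± 0.522 CPM in adult samples (difference 0.85, adjusted p = 0.0456), with adult sample 3 at 1.36 CPM and the other two adult samples at 0.567 and 0.381 CPM. That call was lost when adult sample 3 was left out (difference 0.46, adjusted p = 0.266), and also without adult sample 1 or any of embryonic samples 1 to 3 (adjusted p of 0.0599 to 0.121).

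Chrna7, whose α7 subunit forms calcium-permeable channels on its own, was the only receptor whose groups overlapped. The embryonic samples stood at 19.3, 19.6, 13.5 and 21.3 CPM and the adult samples at 14.6, 15.4 and 12.2 CPM. Embryonic sample 3 lay among the adult samples. The means were 18.4 ± 3.41 and 14.1 ± 1.64 CPM and the difference was -0.28 (95% interval -0.58 to 0.03, adjusted p = 0.0941). Without embryonic sample 3 it was -0.41 (adjusted p = 0.00551), and after centring on sample medians -0.46 (adjusted p = 0.00838).

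All 6 noradrenaline receptors rose, with a median difference of 2.37. The α1 receptors, which couple to Gq, included the largest change of the set. Adra1d had 5, 0, 6 and 1 reads in the embryonic samples (0.271, 0, 0.282 and 0.0462 CPM). In the adult samples it had 468, 506 and 497 reads (20.4, 21.4 and 21.9 CPM). It was near the detection limit in every embryonic library and uniform in the adult ones. The difference was 6.31 (95% interval 5.20 to 7.42, adjusted p = 7.81e-08) on the deposited scale, which compresses such low counts, and 7.71 in log2 units in limma's voom on the recovered reads. Adra1b rose 10.7-fold, from 2.02 ± 0.587 to 21.6 ± 2.44 CPM, and Adra1a rose 6.17-fold, from 2.13 ± 0.477 to 13.2 ± 1.54 CPM. Per kilobase of exon sequence, the embryonic order of the 3 α1 receptors was Adra1b (0.598 CPM), Adra1a (0.311) and Adra1d (0.0789), and the adult order was Adra1d (11.2), Adra1b (6.38) and Adra1a (1.92).

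The α2 receptors, Gi-coupled and partly autoreceptors of noradrenergic fibres, rose less. Adra2a, the least changed of the 6, stood at 5.26, 7.04, 6.30 and 6.10 CPM in embryonic and 22.6, 22.3 and 16.7 CPM in adult samples. The groups were well apart, with adult sample 3 the lowest of the adults, and the mean rose 3.33-fold (difference 1.71, SE 0.13, adjusted p = 4.03e-08). Adra2c rose 3.45-fold, from 7.01 ± 0.420 to 24.2 ± 5.21 CPM. Adrb1, the Gs-coupled β1 receptor, rose 5.13-fold, from 4.36 ± 0.695 to 22.4 ± 2.95 CPM (difference 2.29, adjusted p = 2.32e-09).

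The dopamine receptors of the set were scarce at both ages. Drd5, the Gs-coupled D5 receptor, had 2, 2, 3 and 1 reads in the embryonic samples and 58, 46 and 51 reads in the adult samples (2.53, 1.95 and 2.24 CPM). It rose clear of its embryonic range in every adult sample (difference 3.20, 95% interval 2.61 to 3.78, adjusted p = 1.12e-07). Exons of the opposite-strand gene Gm26560 cover 48.6% of the Drd5 exon bases, and reads of the pair cannot be told apart without stranded counting. Drd3, a Gi-coupled receptor of limbic striatum, had 3, 3, 1 and 1 reads in embryonic and 5, 16 and 8 reads in adult samples. All adult values were above the embryonic ones, but adult sample 2 was well above the other two. The difference was 1.28 (95% interval 0.43 to 2.13, adjusted p = 0.0102), and without adult sample 2 it was 0.98 and missed the threshold (adjusted p = 0.0711).

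Drd4, the Gi-coupled D4 receptor, did not pass the test. It had 16, 11, 11 and 14 reads in embryonic samples (0.867, 0.487, 0.518 and 0.647 CPM) and 7, 10 and 10 reads in adult samples (0.305, 0.424 and 0.440 CPM). Each adult value was below each embryonic value, but with so few reads the difference of -0.41 had a 95% interval from -0.96 to 0.14 (adjusted p = 0.170). The major dopamine receptors Drd1 and Drd2, which are not members of the set and serve here as striatal markers, rose, Drd1 from 12.2 ± 1.28 to 39.4 ± 3.88 CPM and Drd2 from 6.20 ± 0.529 to 36.3 ± 7.84 CPM.

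Cnr1, the Gi-coupled CB1 receptor of axon terminals and the target of endocannabinoids, had the largest fall of the set. Its levels were 347, 315, 273 and 375 CPM in the embryonic samples and 177, 177 and 170.2 CPM in the adult samples. The embryonic samples varied widely and still all lay above the adult samples, which were almost equal. The adult mean, 175 ± 3.80 CPM, was 0.534 of the embryonic mean of 327 ± 43.6 CPM (adjusted p = 3.16e-06 for a difference of -0.81, SE 0.09). Per kilobase of exon sequence its embryonic level was the highest of the set.

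The opioid receptors, all Gi-coupled, diverged. Oprd1, the δ receptor, stood at 0.759, 0.399, 0.471 and 0.416 CPM in embryonic samples (14, 9, 10 and 9 reads) and at 15.1, 18.9 and 16.3 CPM in adult samples. It was low in all embryonic libraries, and every adult value lay far above them. The mean rose 32.8-fold, from 0.511 ± 0.168 to 16.8 ± 1.90 CPM (difference 4.39, SE 0.18, adjusted p = 6.94e-11). Oprk1, the κ receptor for dynorphins, rose 11.5-fold, from 1.03 ± 0.270 to 11.8 ± 1.17 CPM (difference 3.16, adjusted p = 8.52e-10).

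Oprm1, the μ receptor and main target of morphine, changed little. It read 2.22, 2.44, 2.31 and 2.63 CPM in embryonic and 3.40, 2.97 and 2.86 CPM in adult samples. The groups lay side by side without overlap, with a 1.28-fold rise (difference 0.38, 95% interval 0.07 to 0.69, adjusted p = 0.0282). The call was lost after centring on sample medians (0.20, adjusted p = 0.231), without embryonic sample 1 (adjusted p = 0.0594) and without adult sample 1 (adjusted p = 0.10). Oprl1, the receptor for nociceptin, had the highest level per kilobase of the opioid family at both ages, 15.6 CPM in the embryo and 12.8 CPM in the adult. It read 48.6, 54.7, 55.2 and 50.9 CPM in embryonic and 41.1, 43.3 and 44.8 CPM in adult samples. Its small fall, a ratio of 0.823, was just inside the threshold (difference -0.19, 95% interval -0.37 to -0.02, adjusted p = 0.0489). That call was lost without the mean-variance trend (adjusted p = 0.0774) and when embryonic sample 2, embryonic sample 3 or any of the adult samples was left out (adjusted p of 0.0558 to 0.155).

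Both adenosine receptors rose. Adora1, the Gi-coupled A1 receptor that damps transmitter release, stood at 48.1, 42.1, 57.3 and 53.0 CPM in embryonic and at 226, 221 and 251 CPM in adult samples. Each adult value was far above each embryonic value, and the mean rose 4.64-fold, from 50.1 ± 6.54 to 233 ± 16.6 CPM (difference 2.29, SE 0.10, adjusted p = 1.12e-10). Adora2b, the Gs-coupled A2B receptor, had 7, 3, 7 and 6 reads in embryonic samples and stood at 2.92, 2.88 and 2.82 CPM in adult samples. It was rare in the embryo and uniform in the adult (difference 2.66, SE 0.25, adjusted p = 2.85e-07).

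All 3 histamine receptors rose, with the highest median difference of the transmitters with at least 3 receptors, 3.35. Hrh3, the Gi-coupled H3 receptor and presynaptic autoreceptor, read 5.75, 6.42, 7.15 and 5.73 CPM in embryonic and 102, 97.7 and 101 CPM in adult samples. Both groups were tight and far apart, and the mean rose 16-fold, from 6.26 ± 0.675 to 100.2 ± 2.32 CPM (adjusted p = 5.44e-13, the smallest of the set, for a difference of 3.94 with an SE of 0.10). Exons of the opposite-strand gene Gm17180 cover 12.9% of its exon bases. Hrh1, the Gq-coupled H1 receptor and target of sedating antihistamines, rose 13.1-fold, from 0.998 ± 0.375 to 13.1 ± 1.66 CPM. Hrh2, coupled to Gs, changed least of the 3. It read 0.813, 0.709, 0.894 and 0.970 CPM in embryonic and 3.40, 4.24 and 4.27 CPM in adult samples, a 4.69-fold rise with no overlap (difference 1.91, SE 0.17, adjusted p = 2.12e-07).

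**Figure D2:**
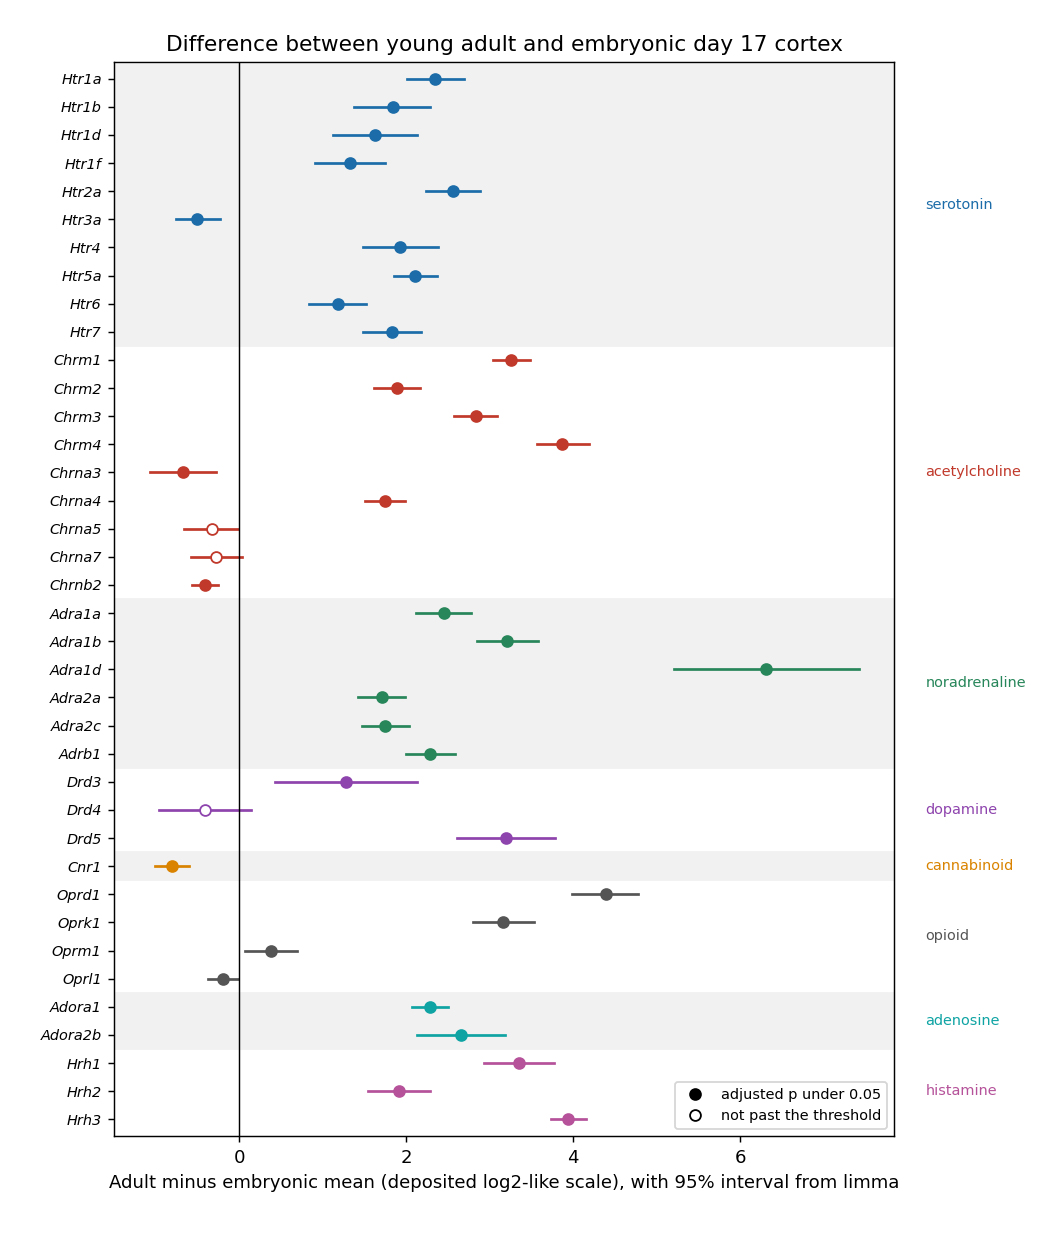
Difference between adult and embryonic means for each receptor on the deposited log2-like scale, with the 95% interval from limma. Filled points passed an adjusted p under 0.05 and the open points Chrna5, Chrna7 and Drd4 did not, while Adra1d stands furthest right at 6.31.

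Grouped by signalling instead of transmitter, all 7 Gq-coupled receptors rose, with a median difference of 3.21 and a range from 2.45 for Adra1a to 6.31 for Adra1d. All 7 Gs-coupled receptors rose as well, with a median of 1.93. Of the 18 Gi/o-coupled receptors 15 rose, 2 fell (Cnr1 and Oprl1) and 1 was not called (Drd4), with a median of 1.79. The 6 ion channel subunits had a median of -0.37. Among them Chrna4 rose, Htr3a, Chrna3 and Chrnb2 fell, and Chrna5 and Chrna7 were not called. In all, 29 of the 32 G protein-coupled receptors and 1 of the 6 channel subunits rose. Of all tested genes 35.8% rose and 33.9% fell. The channel subunits are few, and the difference between these classes was not tested.

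The order of receptor levels changed between the ages. Per kilobase of GENCODE M21 exon sequence, the highest levels in embryonic cortex were those of Cnr1 (51.9 CPM per kilobase), Oprl1 (15.6), Chrnb2 (12.2), Chrna7 (8.86) and Adora1 (8.67). The sample ranges of Chrna7, 6.48 to 10.2, and Adora1, 7.28 to 9.91, overlapped, while those of the first 3 did not overlap with any neighbour. In adult cortex the order per kilobase was Adora1 (40.2), Hrh3 (37.0), Chrm4 (28.3), Chrm1 (27.8) and Cnr1 (27.7). The adult ranges of Chrm4 (22.5 to 34.1), Chrm1 (27.4 to 28.1) and Cnr1 (27.0 to 28.1) overlapped, and that of Adora1 (38.1 to 43.5) lay just above that of Hrh3 (36.1 to 37.8). The Chrm4 model is a single exon of 1440 bases, and the RefSeq start shown above lies upstream of it, so its level per kilobase would fall with a longer model. Htr3a was sixth per kilobase in the embryo and twenty-second in the adult. Adra1d moved from thirty-sixth to a shared seventh place with Chrna4. Drd5 and Drd3 had the lowest embryonic levels per kilobase and Drd4 and Drd3 the lowest adult ones.

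**Figure D3:**
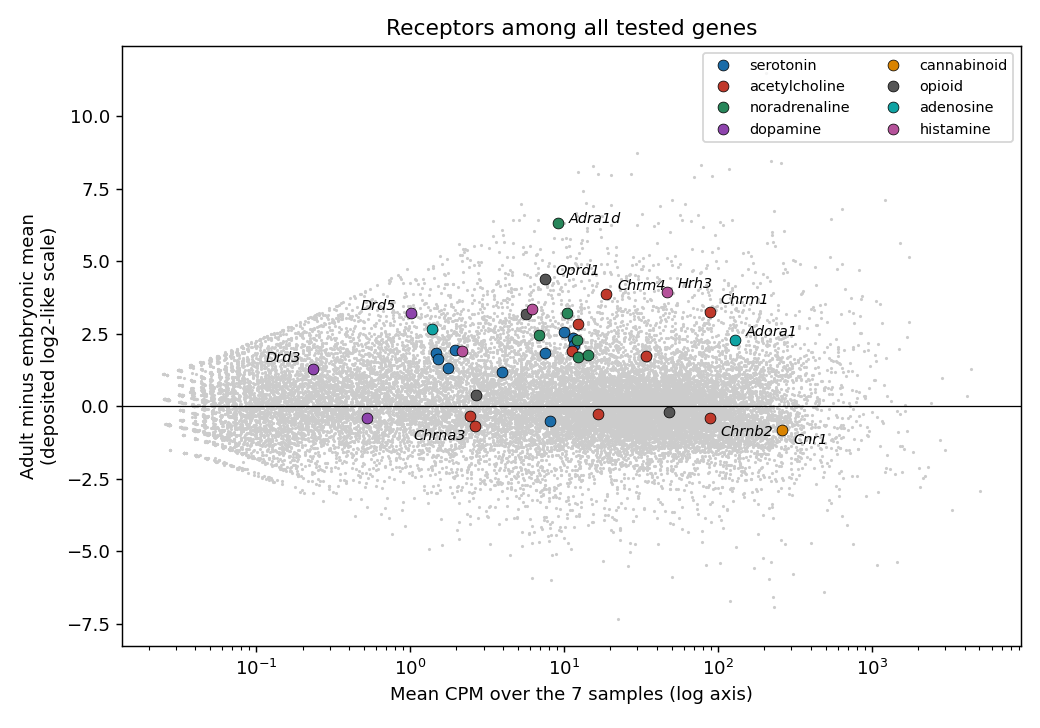
Difference between adult and embryonic means (deposited scale) against mean level over the 7 samples (CPM, log axis), with tested genes in grey and the receptors coloured by transmitter. Most receptors lie above the line at 0, and the highest points among them are Adra1d at 6.31 and Oprd1 at 4.39.

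Some receptor exons lie over another gene's exons. In GENCODE M21, 8 of the 38 receptors share exon bases with a gene on the opposite strand, over 1.42% to 48.6% of their exon length. Adora1 shares 20.1% with Mybph, which stood at 0.123 ± 0.0730 and 0.232 ± 0.0702 CPM. Htr1b shares 18.0% with D430036J16Rik, which stood at 0.684 ± 0.115 and 2.20 ± 0.333 CPM. Oprm1 shares 1.42% with Ipcef1, which stood at 8.19 ± 1.01 and 99.7 ± 16.3 CPM. Adra1d shares 7.74% with Gm14285, at 0.0118 ± 0.0235 and 0.564 ± 0.122 CPM, and Chrm2 shares 2.50% with 9330158H04Rik, at 0.356 ± 0.102 and 0.75 ± 0.327 CPM. The part of these partners in the receptor values was not tested.

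The exon table held 28 exons of 5 receptors, Adora1, Oprl1, Chrnb2, Cnr1 and Chrna7. Exon usage differed between the ages for 2 of them in limma's diffSplice, against 4.86% of all tested exons. In neither did the groups stand apart, and both are named here after their values were seen. The Cnr1 exon listed at mm9 position 34011607 of chromosome 4 took 4.17%, 4.0%, 3.45% and 2.44% of the gene's reads in embryonic and 6.25%, 7.69% and 4.17% in adult samples (adjusted p = 2.64e-05). Its mean share was 3.51% in embryonic and 6.04% in adult samples, which met at 4.17%, while Cnr1 as a whole was lower. diffSplice sets an exon's score against the gene's other exons, so its adjusted p does not test the share alone. The Cnr1 exons listed at 34013584, 34022187, 34022889 and 34025005 had lower mean shares in adult samples. They held 2 to 33 estimated reads per sample, and their part in this call was not tested. The Chrna7 exon listed at 70249864 of chromosome 7 took 1.41%, 5.26%, 2.44% and 3.03% in embryonic and 2.08%, 0.275% and 0.719% in adult samples (adjusted p = 0.0103). That exon rested on 1 to 23 estimated reads per sample. Its call was lost without embryonic sample 2 (adjusted p = 0.130), without adult sample 2 (0.262) and without adult sample 3 (0.0690). The exon file does not say whether a listed position is an exon's start or end.

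The rest of each system was read from lists of pathway genes. Of all tested genes 35.8% were called higher and 33.9% lower, the background for each list. Of 26 further receptors and subunits of the same transmitters, 25 were in the table and 19 were tested. Of these 16 rose, none fell and 3 were not called, with a median difference of 1.71. Htr2c, the serotonin receptor known from choroid plexus as well as neurons, had the largest difference on the deposited scale, from 3.56 ± 0.556 to 50.8 ± 11.3 CPM (3.68, adjusted p = 6.59e-11). All 9 choroid plexus markers rose as well, with sums of 2.82 to 5.14 CPM in embryonic and 606 to 748 CPM in adult samples, and their part in the Htr2c level was not tested. Adrb3, the β3 adrenergic receptor, went from 0.0826 ± 0.0683 to 2.15 ± 0.645 CPM (difference 3.29, adjusted p = 5.19e-07), a difference that the scale compresses since it had 1 to 4 embryonic reads per sample. The list shares Drd1, Drd2 and Adora2a with the striatal markers, and all 3 rose.

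Genes that make, pack, take up and break down monoamines and acetylcholine moved mostly upward, with 15 of 22 higher, 3 lower and 4 not called, and a median of 1.99. Maob, the monoamine oxidase found in astrocytes and serotonergic neurons, rose from 1.10 ± 0.251 to 25.1 ± 2.35 CPM (difference 4.13, adjusted p = 2.98e-11). Chat, the acetylcholine-synthesizing enzyme, rose from 0.219 ± 0.161 to 3.53 ± 0.703 CPM (difference 3.20). Maob rose beside the 8 astrocyte markers, all higher, whose sum was 264 to 279 CPM in embryonic and 5098 to 6102 CPM in adult samples. Slc29a4, the plasma membrane monoamine transporter, fell from 118 ± 5.98 to 17.7 ± 3.19 CPM (difference -2.61, adjusted p = 6.02e-11). Slc6a4, the serotonin transporter, which thalamic axons carry for a time in development, fell from 0.755 ± 0.175 to 0.131 ± 0.0888 CPM (difference -1.66, adjusted p = 0.000396).

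Of 7 genes for proteins that fold or modulate nicotinic receptors, 3 were higher, 1 lower and 3 not called, with a median of 0.14. These counts are small, and the shares over all tested genes were 35.8% higher and 33.9% lower. Lynx1, a membrane-anchored brake on nicotinic receptors, rose from 4.70 ± 0.854 to 535 ± 57.8 CPM (difference 6.72, adjusted p = 6.78e-14). Lypd1, a relative of Lynx1, rose from 13.8 ± 0.386 to 59.5 ± 3.63 CPM (difference 2.13). Tmem35, also called NACHO, a chaperone for α7 and other nicotinic receptors, fell from 89.3 ± 6.00 to 45.0 ± 1.45 CPM (difference -0.89, adjusted p = 1.65e-07).

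All 7 listed enzymes that make or break down endocannabinoids rose, with a median of 1.77, while Cnr1 fell. The eighth gene of that list, Cnrip1, encodes a protein that binds CB1 and was not called (difference -0.15, adjusted p = 0.154). Mgll, which degrades 2-arachidonoylglycerol, rose from 16.9 ± 0.817 to 217 ± 1.14 CPM (difference 3.71, adjusted p = 1.49e-13), and Faah, which degrades anandamide, from 20.1 ± 2.36 to 103 ± 10.2 CPM (difference 2.39). All 4 opioid peptide precursors passed the test, with a median of 2.49, but the call of Pomc rested on adult sample 2. Pomc, the precursor of β-endorphin, stood at 0.878 to 1.37 CPM in embryonic and at 1.53, 9.79 and 1.45 CPM in adult samples (difference 1.12, adjusted p = 0.0385). Without adult sample 2 its difference was 0.32 (adjusted p = 0.210), and it also missed the threshold without any 1 of the embryonic samples (adjusted p of 0.0617 to 0.107). Adult sample 2 also held the highest levels of the hypothalamic peptides Avp (15.3 CPM) and Oxt (12.1 CPM), and their part in the Pomc level was not tested. Penk, the enkephalin precursor, rose from 7.59 ± 1.20 to 251 ± 11.7 CPM (difference 5.01, adjusted p = 1.98e-13) and Pdyn, the dynorphin precursor, from 2.80 ± 0.223 to 34.8 ± 6.56 CPM (difference 3.45). Penk is also 1 of the 11 striatal markers, which rose in 9 cases.

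Genes that produce or remove adenosine were 5 higher, 3 lower and 1 not called out of 9, with a median of 0.92. Over all tested genes 35.8% were higher and 33.9% lower. Nt5e, the ecto-nucleotidase that makes adenosine from AMP, rose from 0.949 ± 0.165 to 7.43 ± 0.649 CPM (difference 2.61), and Entpd2, which breaks down ATP, from 1.30 ± 0.240 to 5.44 ± 1.74 CPM (difference 1.81). Adenosine deaminase, Ada, fell from 2.51 ± 0.458 to 0.869 ± 0.253 CPM (difference -1.18) and the nucleoside transporter Slc29a1 from 32.7 ± 4.80 to 17.3 ± 0.754 CPM (difference -0.80).

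Downstream of the receptors, 18 of 21 genes for second messenger enzymes and GIRK channels rose, 1 fell and 2 were not called, with a median of 1.52. The GIRK subunits Kcnj9, from 5.64 ± 1.24 to 153 ± 11.1 CPM (difference 4.69), and Kcnj6, from 2.29 ± 0.329 to 27.1 ± 3.18 CPM (difference 3.35), had the largest differences. These channels are opened by Gi/o-coupled receptors, 15 of 18 of which rose in the set. The adenylate cyclase Adcy6 fell from 103 ± 6.6 to 62.6 ± 6.04 CPM (difference -0.62, adjusted p = 1.93e-05). Receptor kinases and arrestins, which switch receptors off, changed by no more than 1.10 in either direction. Of these 7 genes, 4 were higher, 1 lower and 2 not called, with a median of 0.31. The shares over all tested genes were 35.8% higher and 33.9% lower. Adrbk1, the kinase GRK2, rose from 108 ± 3.63 to 219 ± 13.7 CPM (difference 1.10), Arrb1 from 188 ± 7.21 to 374 ± 23.0 CPM (difference 1.07), and Grk6 fell from 80.7 ± 4.84 to 64.2 ± 3.60 CPM (difference -0.24, adjusted p = 0.0161). The Grk6 call was lost without embryonic sample 2 (adjusted p = 0.0542) and without adult sample 1 (adjusted p = 0.0689).

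**Figure D4:**
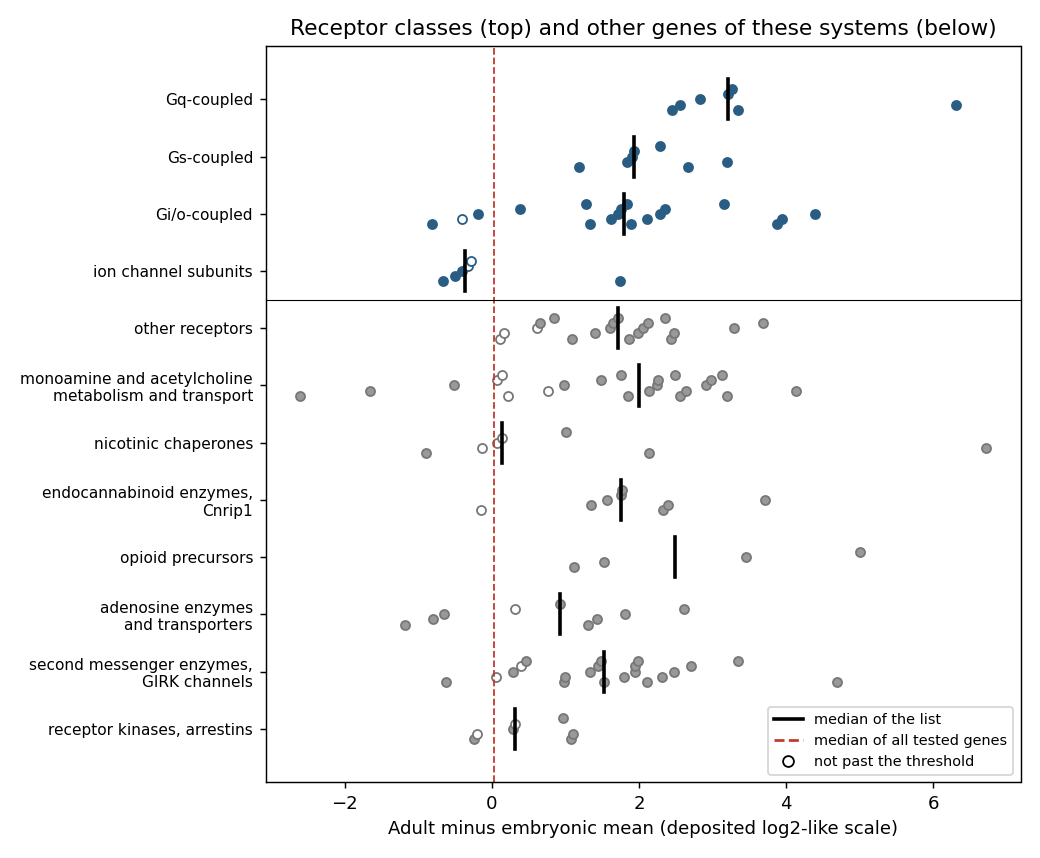
Difference between adult and embryonic means (deposited scale) for each receptor, by signalling class above the line, and for each other gene of these systems, by list below it. Vertical bars are list medians, from -0.37 for ion channel subunits to 3.21 for Gq-coupled receptors, the dashed line is the median of all tested genes, 0.03, and open points missed the threshold.

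The tissue itself differed between the ages, and these values stand beside all of the receptor changes. Depth was similar, with 18444260 to 23606518 reads in genes per sample. Slc17a7, the vesicular glutamate transporter of cortical projection neurons, was present in all samples (43.5 to 62.2 CPM embryonic, 1275 to 1382 CPM adult), while 10 of the 12 projection neuron markers fell. Markers of oligodendrocytes (7 of 7 tested higher, summed level of the list 49.2 to 52.4 CPM embryonic and 4081 to 7291 CPM adult, with Opalin at 0 in every embryonic sample), microglia (8 of 8, 34.2 to 39.4 and 339 to 349) and blood vessels (6 of 8 higher and 1 lower, 172 to 189 and 266 to 288) rose. Markers of monoaminergic and cholinergic cell bodies summed to 8.99 to 15.8 CPM in embryonic and 15.7 to 28.1 CPM in adult samples (7 of 9 tested higher, 2 lower). Slc6a3, the dopamine transporter of midbrain neurons, stood at 0.0542 to 0.282 CPM in embryonic samples and at 5.19, 6.40 and 0.220 CPM in adult samples 1 to 3. Th went from 0.482 ± 0.178 to 4.05 ± 1.73 CPM, while Pitx3, a transcription factor of midbrain dopamine neurons, was at 0 in all embryonic samples and at most at 0.0847 CPM in adult ones. Thalamic and hypothalamic markers were called higher in 8 of 9 cases, 5 of them without overlap, from sums of 41.9 to 48.7 CPM to 95.2 to 173 CPM. Hcrt, the orexin precursor, was at 3.27 and 4.96 CPM in adult samples 1 and 2 and at 0.0440 CPM in adult sample 3. Pmch, of the same list, was at 4.32, 4.83 and 0.0440 CPM in adult samples 1 to 3. Its call was lost without embryonic sample 4, adult sample 1 or adult sample 2 (adjusted p of 0.0565 to 0.107). Activity-regulated genes rose in 9 of 10 cases and summed to 483, 1360 and 340.2 CPM in adult samples 1 to 3, against 43.7 to 49.4 CPM in embryonic ones. The part of these cells in the receptor levels was not tested. Without adult sample 1, Oprm1 and Oprl1 lost their calls, without adult sample 2, Drd3 and Oprl1 did, and without adult sample 3, Oprl1 did. The highest adult value fell in adult sample 1 for 12 receptors, in sample 2 for 15 and in sample 3 for 11.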

How the data were processed

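RNA of 4 embryonic and 3 adult cortex samples was extracted with trizol and made into Illumina mRNA libraries, per the labels' protocols. The submitters' processing notes name, without roles, SAMtools 0.1.7a, HTSeq 0.5.3p3, Bowtie 0.12.7.0, TopHat 1.0.13, CASAVA 1.7.1 and the mm9 build. Whether strand was used in counting is not given in these sources. The deposited gene values are on a log2-like scale, and the authors name their table as variance-stabilized. The deposited exon values are a score in a table so named, which its column headers give as 1 over a ratio. Its steps are whole numbers that behave as gene reads over exon reads, so shares are 100 divided by that number.

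The steps of the gene values gave back whole read counts. In each sample at least 99.96% of values came within 0.1 of a whole number, and the lowest count outside that tolerance was 46072, above the largest receptor count of 8105. CPM describe levels, and tests used the deposited values. The sample scales recovered from the deposited values do not follow the reads in genes. Relative to embryonic sample 1, the scale was 1.2245 for embryonic sample 2 (22575930 reads) and 1.1988 for adult sample 2 (23606518 reads). A ratio of CPM and a difference on the deposited scale therefore need not match exactly, also at high expression. Replicates of a group differed by more than counting gives (chi-square 4.83 to 17.7 per degree of freedom). Nothing in the labels says that samples came from separate animals, so the p-values reflect only how far these samples scatter, which may be technical.

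Groups were compared in limma 3.58.1 (R 4.3.3; lmFit, eBayes with trend, no covariate), leaving out rows at the lowest value in more than 3 of 7 samples, two-sided, with Benjamini-Hochberg adjustment over 22828 genes and a threshold of 0.05. Exon usage was tested with diffSplice over 86181 exons. In simulated data of this comparison (23366 genes), 86% of 100 genes with a log2 change of 1 and 97% of 100 with a log2 change of 2 were called. The changed genes were drawn above a minimum read level, and all genes had the same set spread. Far fewer genes changed there than were called in the data. These shares therefore do not give the sensitivity for receptors with few reads. Alternatives were other filters, centring on sample medians, voom on the recovered reads, no trend, a threshold of 0.01, leaving out each sample and a replicate block. The lists were also counted without each sample, an alternative chosen after seeing the data. Receptors and lists were chosen with earlier results of these data known. Sample values are given for the 3 largest called differences in each direction, the most and least changed receptor of each transmitter, and receptors not called or whose call changed in an alternative with all samples. From each pathway list up to 2 called genes per direction are named. Gene models are GENCODE M21 (GRCm38) and may differ from the authors' models.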

Additional observations from a re-analysis of the deposited data

How the results depend on the processing

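Over 13 other settings, 479 of 493 receptor values kept their direction and side of the threshold, 10 lost and 4 gained a call, and none changed sign. For 33 receptors nothing changed, and the other 5 are Chrna5, Chrna7, Drd3, Oprm1 and Oprl1, whose values stand in the report. The counts of receptors higher and lower were 29 and 7 after centring on sample medians, where 7001 (30.7%) and 9047 (39.6%) of all genes were called higher and lower. They were 28 and 4 at a threshold of 0.01, 29 and 5 with a mean of at least 10 reads, and 30 and 5 without a filter, in voom and without the trend. Leaving out 1 sample gave 29 to 30 higher and 4 to 5 lower. Centring shifted the median over all genes by -0.18 and left the receptors at a median of 1.72. The count of called receptor exons was 1 at a threshold of 0.01 and 1 to 3 when 1 sample was left out. The causes were not tested. Among the lists, only small counts (2 or fewer genes) moved by more than 1.5 times when 1 sample was left out.

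The correlations of same-numbered samples about their group means were 0.01, 0.06 and 0.04. Those of differently numbered samples ran from -0.05 to 0.06. No pairing by replicate number was seen, but so few samples cannot settle whether there is one. With the replicate block, 30 receptors were higher and 5 lower, and 1 receptor exon was called, since the Chrna7 exon had an adjusted p of 0.12. The block changed no other receptor call.

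Low counts limit Htr1b, Htr1d, Adra1d, Drd3, Drd5, Oprd1 and Adora2b, the 7 receptors with fewer than 10 reads in an embryonic sample. Their fold is compressed on the deposited scale.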
